A study of Mus musculus with 8 samples.

Results

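The keratin-associated proteins (Krtap genes) of mouse skin were taken as every protein-coding gene in the count table whose symbol starts with Krtap followed by a digit, which gave 57 of 56748 genes. Male mice, 8 in number and 35 weeks old, each gave 1 whole-skin RNA sequencing library. The NPY-tet group held 3 mice of the strain B6;129S4-Npytm2Rpa/J homozygous for the tet allele of Npy (NPY tet/tet), and the WT group held 5 wild-type siblings (NPY +/+). No mouse of either group received a treatment, per the labels, and the sources used here do not name the cells in which the allele drives Npy. A library is called here by its group and replicate number, for example WT 5 or NPY-tet 2. The study's title concerns inflammation and fibrosis of the skin when NPY, a peptide transmitter of sympathetic nerves, is overexpressed, and the comparison made here is that of Krtap expression between the genotypes.

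Krtap proteins form the matrix between the keratin filaments of the hair shaft, where their many cysteines are cross-linked with the hair keratins. They are made late in hair formation, in the cortex and cuticle cells of follicles that are actively growing a shaft (the anagen phase of the hair cycle), and resting follicles make little of them. The genes are short, usually without introns, lie in tandem clusters, and are sorted by protein content into high sulfur, ultra-high sulfur and glycine-tyrosine rich subfamilies. In whole skin, fewer cells of a type and less RNA per cell cannot be told apart.

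By family number, 25 members were high sulfur, 17 were ultra-high sulfur (families 4, 5, 9 and 17) and 15 were glycine-tyrosine rich (families 6, 7, 8, 19, 20, 21 and 22). They lay in 5 places of the mm39 genome. The largest groups were a cluster of 24 members at chr16:88407593-89368071, with all 15 glycine-tyrosine members and 9 high sulfur members, and a cluster of 23 members at chr11:99440956-99884820, with 11 high sulfur and 12 ultra-high sulfur members. The other members were the 5 of family 5 at chr7:141728272-141858331, the 3 of families 10 and 12 at chr10:77556433-77673086 and the 2 of family 28 at chr1:83019245-83039642.

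The promoter sequences are shown because most of the matched ones hold a TATA motif between 40 and 20 bases before the start. A relation of the promoter letters to expression in these libraries was not tested. RefSeq promoter sequences (GRCm38.p6, 250 bases before to 50 after the annotated start) were matched for 51 of the 57 members; the unmatched ones were Krtap28-10, Krtap12-1, Krtap10-10, Krtap1-3, Krtap9-1 and Krtap7-1. Each line gives the bases before the start, 5′ to 3′ on the gene's strand, ending at position -1, with matches to TATAAA and CTTTGAA in capitals on either strand. Krtap11-1, at chr16:89571184-89571433 (minus strand), and Krtap15, at chr16:88828759-88829008 (plus strand), are high sulfur members among the 5 highest in these libraries and are printed over 250 bases.
Krtap11-1: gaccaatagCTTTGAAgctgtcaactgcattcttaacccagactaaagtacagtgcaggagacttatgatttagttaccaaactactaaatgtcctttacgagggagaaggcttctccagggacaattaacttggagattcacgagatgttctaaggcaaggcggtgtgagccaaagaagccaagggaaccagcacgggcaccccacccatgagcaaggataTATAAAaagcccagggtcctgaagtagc
Krtap15: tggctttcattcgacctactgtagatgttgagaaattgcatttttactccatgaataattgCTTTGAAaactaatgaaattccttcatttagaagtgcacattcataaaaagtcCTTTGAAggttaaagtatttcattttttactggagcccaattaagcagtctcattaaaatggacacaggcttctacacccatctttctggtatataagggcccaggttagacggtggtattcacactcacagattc
The next lines give the 60 bases before the start for members of each subfamily and of 4 chromosomes. Krtap3-2 (chr11:99556854-99556913 (minus strand)), Krtap1-5 (chr11:99581017-99581076 (minus strand)) and Krtap28-13 (chr1:83060870-83060929 (plus strand)) are high sulfur members.
Krtap3-2: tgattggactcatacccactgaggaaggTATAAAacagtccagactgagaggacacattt
Krtap1-5: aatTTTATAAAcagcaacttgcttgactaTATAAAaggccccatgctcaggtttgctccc
Krtap28-13: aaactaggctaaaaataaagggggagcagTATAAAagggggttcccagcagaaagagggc
Krtap9-3 (chr11:99598107-99598166 (minus strand)), Krtap4-7 (chr11:99644090-99644149 (minus strand)), Krtap17-1 (chr11:99993995-99994054 (minus strand)) and Krtap5-5 (chr7:142229972-142230031 (minus strand)) are ultra-high sulfur members.
Krtap9-3: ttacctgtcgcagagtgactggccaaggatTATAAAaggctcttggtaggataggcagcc
Krtap4-7: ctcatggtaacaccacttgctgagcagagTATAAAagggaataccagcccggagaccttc
Krtap17-1: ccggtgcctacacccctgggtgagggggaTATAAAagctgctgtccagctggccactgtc
Krtap5-5: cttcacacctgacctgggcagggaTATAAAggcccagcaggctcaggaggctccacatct
Krtap8-1 (chr16:89487953-89488012 (minus strand)) and Krtap22-2 (chr16:89010760-89010819 (minus strand)) are glycine-tyrosine members.
Krtap8-1: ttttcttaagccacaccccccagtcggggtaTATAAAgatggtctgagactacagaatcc
Krtap22-2: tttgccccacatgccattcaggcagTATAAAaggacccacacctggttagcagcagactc
In these short sequences TATAAA began at position -29 in Krtap8-1, -30 in Krtap9-3, -31 in Krtap1-5, Krtap4-7, Krtap17-1 and Krtap28-13, -32 in Krtap3-2, -35 in Krtap22-2 and -36 in Krtap5-5. Krtap1-5 held a second copy further upstream, which overlaps a match on the other strand.

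TATAAA is the core of the TATA box, which positions the start of transcription in a minority of genes. On the gene's own strand and between 40 and 20 bases before the start, it was present in 31 of the 51 members (60.8%) against 1.99% of all 32851 RefSeq promoters of the same length. The copy began at positions -32 to -30 in 20 members. The share was 75% of 16 ultra-high sulfur, 61.9% of 21 high sulfur and 42.9% of 14 glycine-tyrosine members. CTTTGAA was searched as the core letters bound by LEF1, a factor of the Wnt pathway acting in hair shaft precursors, and CTTTGAAG as the longer form that contains it. CTTTGAA was present on either strand in 9 of 51 members (17.6%) against 5.14% of all promoters, and CTTTGAAG in 7 (13.7%) against 1.66%. Of the 7, 6 were high sulfur members by family number, among them Krtap16-3, which lies beside family 19 and shares 1.09% of its 50-base stretches with Krtap19-1 and Krtap19-2, so that its subfamily is uncertain. Of the same 7, 6 lay in the chromosome 16 cluster (Krtap24-1, Krtap14, Krtap15, Krtap19-3, Krtap16-3 and Krtap11-1), while neither form was found in the 16 ultra-high sulfur promoters. These are matches of letters in a window and were not tested as binding sites.

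Npy was checked first. It stood at 0.159, 0.177, 0.168, 0.180 and 0.502 CPM (counts scaled to library size with TMM factors) in WT 1 to WT 5 and at 304, 321.5 and 299.7 CPM in NPY-tet 1 to 3, in accord with the genotype labels. The log2 fold change was 10.37 (SE 0.284), with an adjusted p of 3.6e-09 by the edgeR quasi-likelihood test.

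Libraries of the same genotype stood apart from each other in hair follicle RNA, with WT 5, NPY-tet 1 and NPY-tet 2 high. Total counts were 31370433 to 47495565 per library. The share of counts from ribosomal RNA genes was 6.44% to 8.07% in WT 1, WT 2, WT 3, WT 5 and NPY-tet 1 and 0.0388% to 0.0754% in WT 4, NPY-tet 2 and NPY-tet 3, so libraries with the highest Krtap levels were found in both sets. Sums over marker lists of other cell types ranged from 23.6 to 120.1 CPM (WT) and 26.2 to 108.9 CPM (NPY-tet) for 6 melanocyte genes, highest in WT 5 and NPY-tet 2. The 5 fibroblast genes ranged from 7087 to 15827 CPM in WT and from 1920 in NPY-tet 1 to 16690 CPM in NPY-tet 3. The 5 did not fall alike in NPY-tet 1. Col1a1 stood there at 423.1 CPM (WT 3269 to 9146), Col3a1 at 353.3 (2502 to 5132) and Lum at 69.5 (161.3 to 303.4). Dcn stood at 1002 CPM (WT 1069 to 1165) and Pdgfra at 72.7 (61.6 to 80.8). The 4 white adipocyte genes ranged from 2086 to 3258 CPM in WT and stood at 1261, 1140 and 3178 CPM in NPY-tet 1 to 3. The 5 suprabasal keratinocyte genes stood at 6901 to 13814 CPM over the 8 libraries and the 4 basal keratinocyte genes at 5436 to 9901 CPM. The 6 proliferation genes, listed for the hair matrix but not specific to it, ranged from 34 to 77.5 CPM in WT. In NPY-tet 1 to 3 they stood at 22.9, 86.3 and 39.6 CPM, so NPY-tet 1 was the lowest library. The 5 dermal papilla genes ranged from 7.14 to 13.4 CPM in WT and 8.71 to 14.2 CPM in NPY-tet. The 5 skeletal muscle genes ranged from 23638 to 58335 CPM in WT and 23236 to 36162 CPM in NPY-tet. The 5 sebaceous gland genes stood at 190.6 to 270.6 CPM in WT and 299.9 to 434.4 CPM in NPY-tet, without overlap, which held for 3.78% of all single genes tested. None of the 5 passed the edgeR test across all genes (smallest adjusted p 0.346). At an unadjusted p under 0.05 by edgeR there were 4, against 5.98% of all genes. With DESeq2 2 passed (smallest adjusted p 0.00958), where 20 of 19092 genes were called higher and 44 lower. Without the filter on low counts 2 passed (0.0179 by edgeR), where 9 of 32480 genes were called higher and 12 lower. The part of these cell types in the Krtap differences was not tested.

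Krtap RNA varied over 300-fold between mice, and the genotypes overlapped. The summed count of the 57 members was 644, 139, 127, 162 and 29520 in WT 1 to WT 5, and 8450, 27059 and 631 in NPY-tet 1 to 3. As CPM the sums were 20.4, 3.52, 4.26, 3.24 and 987.1 in WT and 217.6, 733.3 and 18.2 in NPY-tet, a ratio of 304.8 between the highest and the lowest library. WT 5 was thus the highest, NPY-tet 2 and NPY-tet 1 followed, WT 1 and NPY-tet 3 lay close together, and WT 2, WT 3 and WT 4 were lowest. The means were 203.7 ± 438 CPM (SD, n = 5) in WT and 323 ± 369 CPM (SD, n = 3) in NPY-tet, so the difference was smaller than the spread within either genotype. In WT 5 Krtap RNA was 0.0941% of all counts (95% exact Clopper-Pearson interval 0.0930 to 0.0952%, counting error only), and in WT 4 it was 0.000341% (0.000291 to 0.000398%).

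**Figure D1:**
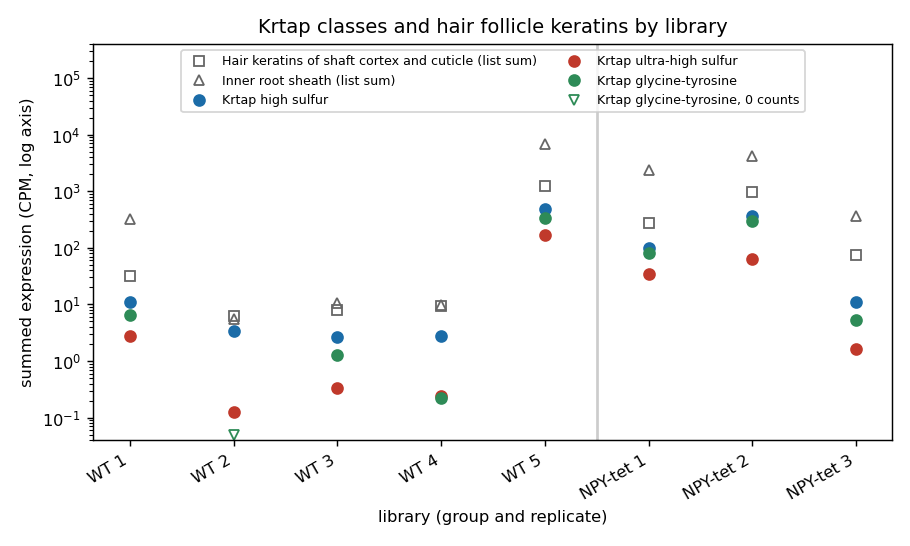
Summed expression in CPM (log axis) of the 3 Krtap subfamilies (filled circles), the hair keratins and the inner root sheath genes (open symbols) in each of the 8 libraries, with a grey line between the genotypes. WT 5 and NPY-tet 2 stand highest for all 5 sums, NPY-tet 1 follows, and the open triangle at the bottom marks the 0 counts of glycine-tyrosine members in WT 2.

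More members were seen in the libraries with high sums. In WT 5 and NPY-tet 1, 56 of 57 members had at least 1 count, in NPY-tet 2 55, in WT 1 46, in NPY-tet 3 36, in WT 3 14, in WT 4 8 and in WT 2 5. Krtap13, a high sulfur member of the chromosome 16 cluster, had 0 counts in every library, which allows at most 0.0600 to 0.101 CPM per library (3 counts). The highest library was WT 5 for 40 members and NPY-tet 2 for the other 16 that were counted, and no member was highest in NPY-tet 1 or in a library with a low sum.

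**Figure D2:**
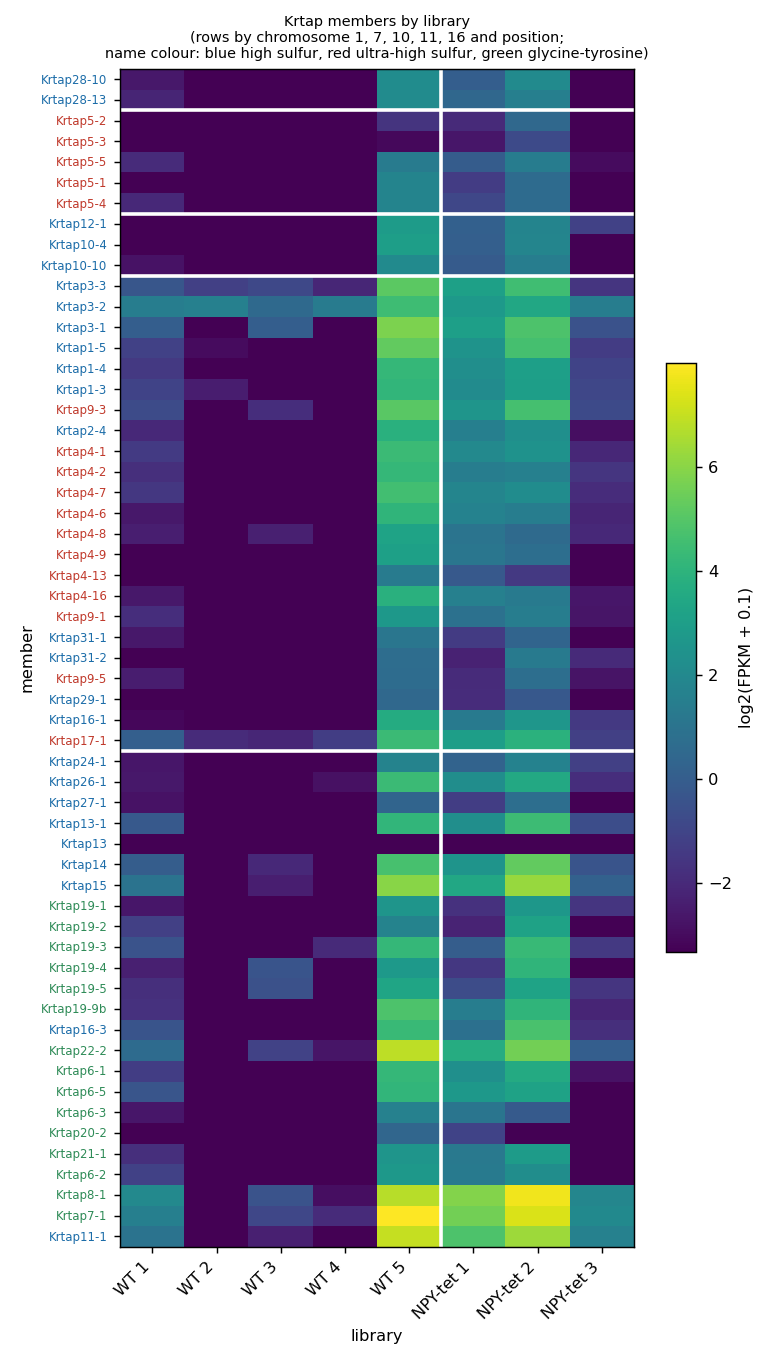
Expression of the 57 members (rows, by chromosome and position, name colour giving the subfamily) in the 8 libraries (columns), as log2(FPKM + 0.1) in colour from dark (low) to yellow (high). Columns WT 5, NPY-tet 2 and NPY-tet 1 are bright over nearly all rows, Krtap3-2 keeps colour in every column, and Krtap13 is dark throughout.

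Levels were compared between genes as FPKM, which divides by gene length. Both of the highest members were glycine-tyrosine rich, although that subfamily was the smallest. Krtap7-1, which fills the hair cortex and is the only member of family 7, was highest on the mean over libraries (58.6 FPKM), with 2.85, 0, 0.427, 0.160 and 252.5 FPKM in WT 1 to 5 and 47.5, 161 and 4.00 FPKM in NPY-tet 1 to 3. Krtap8-1, the only member of family 8 and also a cortex protein, stood at 3.84, 0, 0.635, 0.0346 and 108 FPKM in WT and 59.0, 216.5 and 3.53 FPKM in NPY-tet. Krtap22-2 stood at 1.45, 0, 0.363, 0.0544 and 117.4 FPKM in WT and 12.8, 47.1 and 0.938 FPKM in NPY-tet. Krtap7-1 and Krtap22-2 peaked in WT 5 and Krtap8-1 in NPY-tet 2, and in each of the 3 genes WT 5 was the only WT library above 4 FPKM.

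Among the high sulfur members Krtap11-1 led, with 1.85, 0, 0.0986, 0 and 128.7 FPKM in WT 1 to 5 and 28.1, 80.3 and 3.00 FPKM in NPY-tet 1 to 3. Krtap15 stood at 1.86, 0, 0.0945, 0 and 62.4 FPKM in WT and 10.8, 75 and 1.03 FPKM in NPY-tet, and Krtap3-1 at 0.925, 0, 0.933, 0 and 54.2 FPKM in WT and 8.34, 28.5 and 0.614 FPKM in NPY-tet. All 3 were at or near 0 in WT 2 and WT 4. The gene span of Krtap15 overlaps that of Krtap14 on the opposite strand, but their GENCODE transcripts share no 50-base stretch. Of the Krtap15 stretches, 14.6% also occur in 4930553J12Rik, a non-coding gene that overlaps it. Reads of those stretches cannot be told apart.

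The ultra-high sulfur members were lower. Krtap9-3 led with 0.491, 0, 0.175, 0 and 33.9 FPKM in WT 1 to 5 and 5.80, 25.2 and 0.489 FPKM in NPY-tet 1 to 3. Krtap17-1, the single member of its family and a protein of the hair cuticle, stood at 0.979, 0.164, 0.131, 0.313 and 20.96 FPKM in WT and 7.99, 14.7 and 0.338 FPKM in NPY-tet. Krtap4-7 stood at 0.252, 0, 0, 0 and 23.6 FPKM in WT and 3.39, 4.40 and 0.174 FPKM in NPY-tet. Krtap17-1 was detected in all 8 libraries, unlike Krtap9-3 and Krtap4-7. In the smaller clusters the leading members were Krtap28-10 on chromosome 1 (4.41 FPKM in WT 5, its highest), Krtap10-4 on chromosome 10 (7.96 FPKM in WT 5) and Krtap5-5 on chromosome 7 (2.59 FPKM in NPY-tet 2). Families 5, 10 and 12 are known from the hair cuticle.

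Krtap3-2, a high sulfur member of the chromosome 11 cluster, differed from the others in its low libraries. Its counts were 89, 120, 42, 132 and 680 in WT 1 to 5 and 278, 414 and 97 in NPY-tet 1 to 3, so it was counted in every mouse. It made up 86.3% of all Krtap counts in WT 2 and 81.5% in WT 4, against 13.8% in WT 1. Its highest library was 16.2 times its lowest in CPM, the narrowest range among members with a mean of at least 1 CPM. The next narrowest was Krtap28-13, at 70.3 times the limit of 3 counts, and the widest were Krtap11-1 and Krtap8-1, at 2177 and 2101 times that limit. For members with 0 counts in a library these ratios are lower bounds. Leaving Krtap3-2 out, the Krtap sum fell to 0.481 CPM in WT 2 and 0.599 CPM in WT 4, and in WT 5 it stood at 964.4 CPM. Of the 50-base stretches of the Krtap3-2 transcript, 28.9% also occur in Krtap3-3 or Krtap3-1, so part of its reads could have been assigned to a neighbour, but those neighbours had 0 to 18 counts in WT 1 to WT 4.

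The make-up of the Krtap RNA could be compared between the 3 libraries with at least 8450 Krtap counts. All shares are of the counts of the 57 members chosen by symbol. Genes under other symbols that share 50-base stretches with members, such as Gm11564 and Gm11595 with family 4, are not in them. Ultra-high sulfur members took 17.4% of Krtap counts in WT 5 (95% exact interval 17 to 17.9%), 16.2% in NPY-tet 1 (15.4 to 17%) and 8.81% in NPY-tet 2 (8.48 to 9.15%). Glycine-tyrosine members took 33.5% (33.0 to 34.0%), 38.0% (37.0 to 39.0%) and 41.3% (40.8 to 41.9%) in the same order, and high sulfur members 49.1%, 45.9% and 49.9%. The chromosome 16 cluster took 60.9% in WT 5, 63.8% in NPY-tet 1 and 74.8% in NPY-tet 2, and the chromosome 11 cluster 35.4%, 33.0% and 21.9%. The intervals cover counting error only, and each library is 1 mouse, so these shares compare mice and not genotypes. WT 1 and NPY-tet 3, with 644 and 631 Krtap counts, had 13.4% (10.8 to 16.2%) and 9.03% (6.91 to 11.6%) in ultra-high sulfur members.

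NPY-tet 2 and WT 5 differed by family. Summed over all members, NPY-tet 2 had 0.743 times the CPM of WT 5. Over 54 members with at least 4 counts in both, the ratio ran from 0.105 for Krtap4-13 (95% exact interval 0.0432 to 0.219) to 5.84 for Krtap5-2 (3.00 to 12.7), and the interval lay below 1 for 36 members and above 1 for 9. As a share of each library's Krtap counts, which takes out the lower sum of NPY-tet 2, it lay below 1 for 27 and above 1 for 16. The intervals cover counting error only, and such counts were not taken over all genes. They are thus not read as particular to Krtap genes. All 8 members of family 4, ultra-high sulfur proteins whose genes lie next to each other on chromosome 11, were highest in WT 5, with ratios of 0.105 to 0.259. Their summed counts were 3359 in WT 5, 792 in NPY-tet 1 and 770 in NPY-tet 2, or 11.4%, 9.37% and 2.85% of Krtap counts. Of the 50-base stretches of Krtap4-13, 81.3% occur in other genes, whereas for Krtap4-16, with the ratio 0.161 (0.126 to 0.204), none do.

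Members above WT 5 in NPY-tet 2 came from the chromosome 16 cluster in the main. The ratio was 2.02 (1.91 to 2.13) for Krtap8-1, 2.75 (2.07 to 3.71) for Krtap19-2, 2.48 (1.86 to 3.35) for Krtap19-4, 1.48 (1.35 to 1.63) for Krtap14, 1.31 (1.15 to 1.499) for Krtap16-3, 1.25 (1.10 to 1.42) for Krtap13-1 and 1.21 (1.14 to 1.28) for Krtap15. The other members whose interval lay above 1 were Krtap5-2 on chromosome 7 and Krtap31-2 on chromosome 11. Krtap7-1, next to Krtap8-1 in the cluster, had a ratio of 0.643 (0.615 to 0.671). The order of these neighbours differed between mice with high sums. Krtap8-1 exceeded Krtap7-1 in FPKM in NPY-tet 1 and NPY-tet 2, and Krtap7-1 exceeded Krtap8-1 in WT 5. Krtap8-1 was also the higher in WT 1 and WT 3, and Krtap7-1 in WT 4 and NPY-tet 3. Those low libraries held only 1 to 87 counts of either gene, too few to order the pair.

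NPY-tet 1 had 0.221 times the summed CPM of WT 5, and family 19 was lower still. The 6 members of family 19, glycine-tyrosine proteins, summed to 1044 counts in WT 5, 1365 in NPY-tet 2 and 87 in NPY-tet 1, or 3.54%, 5.05% and 1.03% (0.826 to 1.27%) of Krtap counts. Krtap19-1 had 88, 116 and 4 counts in the same order and Krtap19-3 292, 386 and 19. The ratio of NPY-tet 1 to WT 5 was 0.0350 (0.00933 to 0.0929) for Krtap19-1 and 0.0501 (0.0297 to 0.0797) for Krtap19-3. Krtap16-3, which follows family 19 in the cluster, had 364, 589 and 40 counts and a ratio of 0.0846 (0.0595 to 0.118). The next member along the chromosome, Krtap22-2, had a ratio of 0.110 (0.0937 to 0.128), and Krtap8-1 had 0.550 (0.512 to 0.591). Against NPY-tet 2, the other NPY-tet mouse with a high sum, NPY-tet 1 ran from 0.0328 (0.00878 to 0.0862) for Krtap19-1 to 2.97 (1.30 to 7.62) for Krtap4-13.

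**Figure D3:**
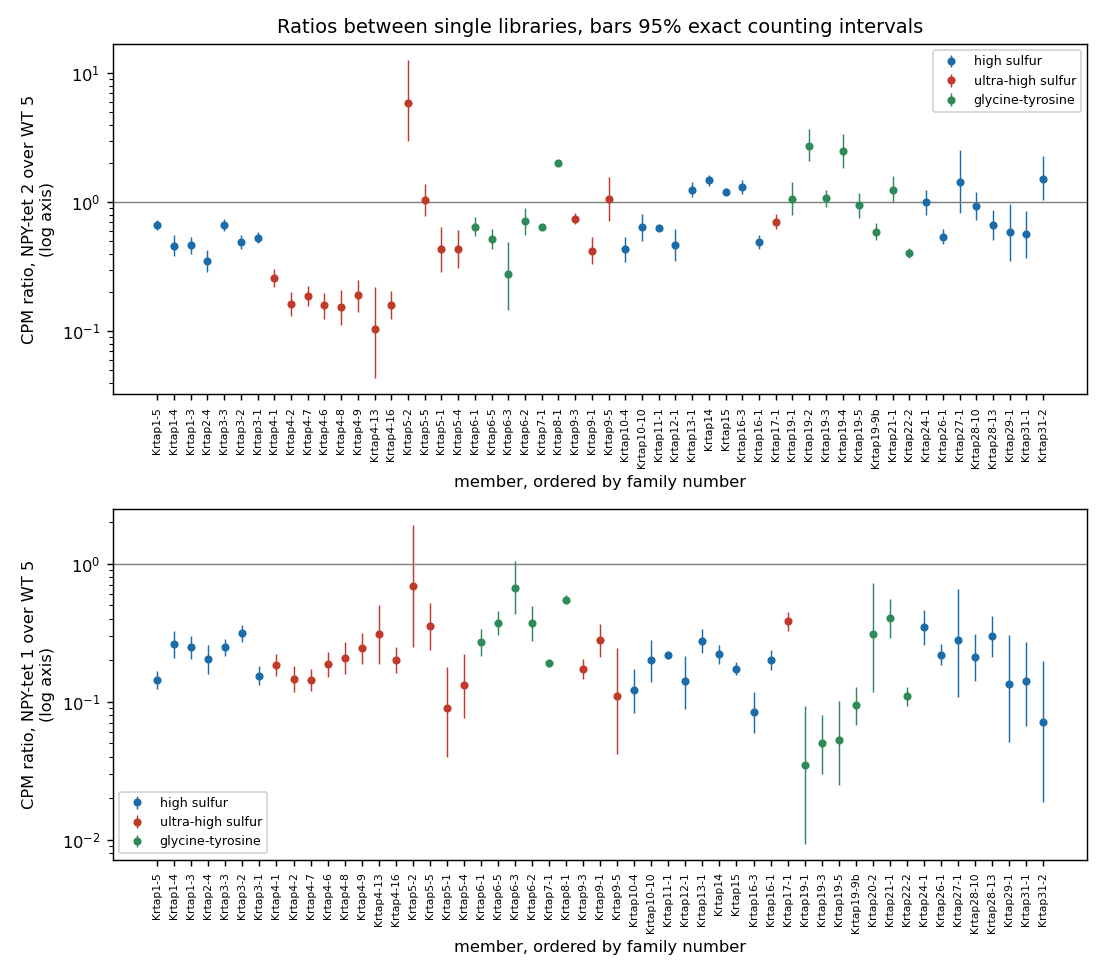
Ratio of CPM between single libraries for each member, by family number, on a log axis, with 95% exact intervals that cover counting error only. The upper panel gives NPY-tet 2 over WT 5, with family 4 at 0.105 to 0.259, and the lower panel NPY-tet 1 over WT 5, with Krtap19-1 lowest at 0.0350.

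Along the chromosomes, levels formed runs of neighbours. In WT 5 the first 11 members of the chromosome 11 cluster, from Krtap3-3 to Krtap4-7, stood between 14.1 and 54.2 FPKM. The members from Krtap31-1 to Krtap29-1 stood between 1.29 and 2.05 FPKM, and the last member, Krtap17-1, at 20.96 FPKM. In the chromosome 16 cluster of WT 5 the last 3 members, Krtap8-1, Krtap7-1 and Krtap11-1, stood at 108, 252.5 and 128.7 FPKM. Krtap20-2, a glycine-tyrosine member nearer the middle of that cluster, stood at 1.25 FPKM in WT 5 and had 0 counts in NPY-tet 2.

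**Figure D4:**
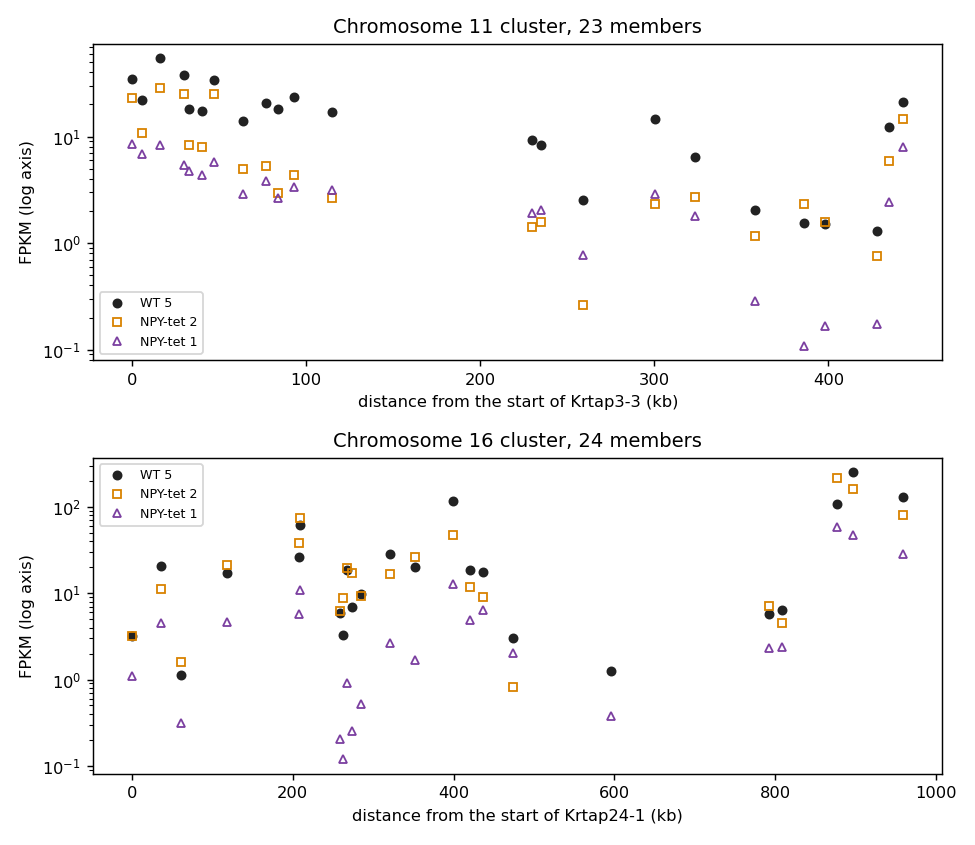
FPKM (log axis) of members of the chromosome 11 and chromosome 16 clusters against the distance in kb from the start of the first member, in WT 5, NPY-tet 2 and NPY-tet 1; values of 0 are not drawn. On chromosome 11 the NPY-tet 2 squares come down to about the level of the NPY-tet 1 triangles over family 4, and on chromosome 16 the NPY-tet 1 triangles drop over family 19.

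None of the members differed between NPY-tet and WT skin in the edgeR quasi-likelihood test with Benjamini-Hochberg adjustment over all 18495 genes tested. Of the 57 members, 43 passed the filter on low counts and 0 passed an adjusted p of 0.05, where the background over all genes was 0.00541% (Npy alone). At an unadjusted p under 0.05 the count was 0 of 43, against 5.98% of all genes tested. In 0 of 43 members did every NPY-tet library lie above, or every one below, every WT library, against 3.78% of all genes. The fitted log2 fold change was above 0 for 32 members and below 0 for 11, with a median of 0.44 against 0.004 over all genes. DESeq2 likewise called 0 of the 40 members to which it gave an adjusted p, with 1 of 56 at an unadjusted p under 0.05. Over all genes 1538 were at such a p, which is 8.06% of the 19092 given an adjusted p. The 1538 were counted with or without an adjusted p, so the share of all genes is at most 8.06%.

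**Figure D5:**
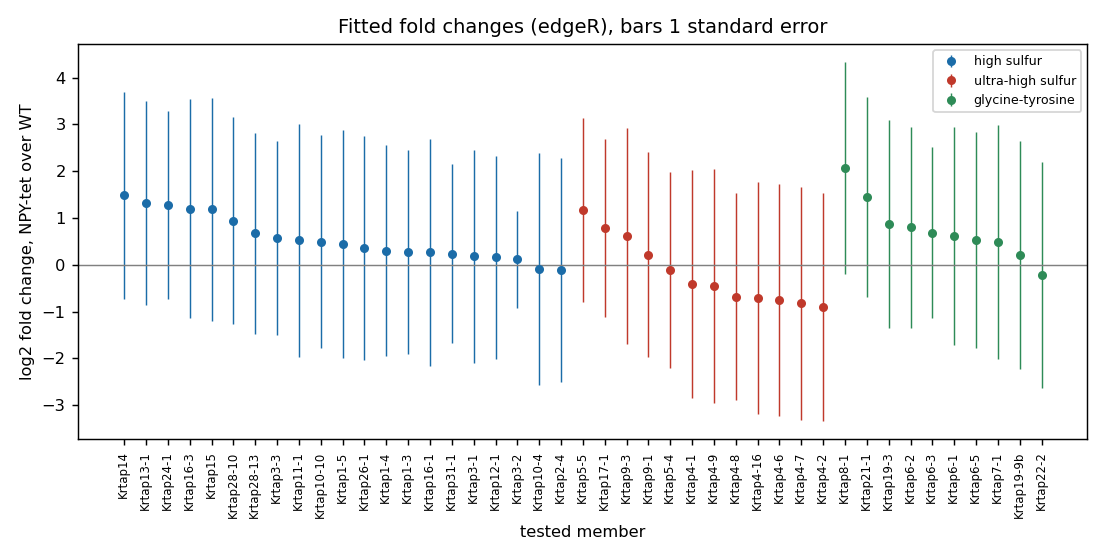
Fitted log2 fold change of NPY-tet over WT for the 43 tested members, grouped by subfamily and sorted, with bars of 1 standard error. Points lie between -0.90 and 2.07, and each bar spans at least 1 log2 unit on either side.

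By subfamily the median log2 fold change was 0.44 for 21 high sulfur members (19 above 0), -0.43 for 12 ultra-high sulfur members (4 above 0) and 0.65 for 10 glycine-tyrosine members (9 above 0). By cluster it was 0.80 over 17 members on chromosome 16 and 0.18 over 19 on chromosome 11. The smallest p belonged to Krtap8-1, at 13.0 ± 27.6 CPM (SD, n = 5) in WT and 54.1 ± 64.3 CPM (SD, n = 3) in NPY-tet, with a log2 fold change of 2.07 (SE 2.27) and an adjusted p of 0.867 by edgeR. Krtap21-1 (log2 fold change 1.45, SE 2.13), Krtap14 (1.48, SE 2.21) and Krtap24-1 (1.27, SE 2.00) were the next on that side, with adjusted p of 0.904 to 0.909 by edgeR. On the other side the 4 smallest p all belonged to family 4, with log2 fold changes of -0.90 (SE 2.44) for Krtap4-2, -0.83 (SE 2.49) for Krtap4-7, -0.76 (SE 2.48) for Krtap4-6 and -0.68 (SE 2.21) for Krtap4-8. Krtap4-2 had 6, 0, 0, 0 and 537 counts in WT 1 to 5 and 102, 108 and 8 in NPY-tet 1 to 3, so its WT mean of 3.63 ± 8.01 CPM rested on WT 5.

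The direction of these values depended on single libraries. The median over tested members was 5.92 without WT 5 (19 tested, 19 above 0, 0 past the threshold, and all 19 at an unadjusted p under 0.05, against 9.11% of all genes) and -0.85 without NPY-tet 2 (44 tested, 3 above 0, 0 past the threshold). Without WT 5 the filter on low counts was run anew. With WT 2, WT 3 and WT 4 near 0 for most members, passing it required counts in the NPY-tet libraries. The direction and p of those 19 were thus largely set by the filter and are not read as a result. The median was 0.106 to 0.136 without 1 of WT 1 to WT 4, 0.68 without NPY-tet 1 and 1.06 without NPY-tet 3. Fitted with limma on log values, all 43 fold changes were above 0, family 4 included, with a median of 4.84 by limma-voom and 0.84 by limma on log2(FPKM + 1), and 0 passed. With limma-voom 25 of 43 members were at an unadjusted p under 0.05, against 12.4% of all genes, and the smallest adjusted p was 0.253. Within the libraries rich in ribosomal RNA (NPY-tet 1 against WT 1, 2, 3 and 5) the median was -0.29, with 38 of 55 members below 0, and 0 passed. Within those poor in it (NPY-tet 2 and 3 against WT 4) it was 9.07 and 10 of 54 members passed, all higher in NPY-tet, where 0.653% of all genes tested were called higher. WT 4 was there the only WT mouse, with the spread of the 2 NPY-tet mice assumed for it, and most members had 0 counts in it. With these 2 sets of libraries as a covariate the median was 2.35 and 0 members passed. With the replicate number as a block, 1 of 43 members passed (Krtap16-1, a high sulfur member, higher in NPY-tet), where 0.0108% of all genes were called higher. At an unadjusted p under 0.05 there were 37 of 43, against 11% of all genes. Replicates 4 and 5 exist only in WT, so WT 4 and WT 5, the latter with the highest Krtap16-1 level (23.1 CPM against 0.519 to 11.4 CPM in NPY-tet), do not enter that comparison.

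The hair keratins, the cysteine-rich filament proteins to which Krtap proteins are linked, followed the Krtap sum from library to library. The 15 genes of that list found in the file summed to 31.7, 6.25, 8.01, 9.44 and 1246 CPM in WT 1 to 5 and 271.8, 967.6 and 74.0 CPM in NPY-tet 1 to 3. The Krtap sum was 0.645, 0.563, 0.531, 0.343 and 0.792 times the hair keratin sum in WT 1 to 5 and 0.801, 0.758 and 0.246 times in NPY-tet 1 to 3. The ratio lay within 0.758 to 0.801 in WT 5, NPY-tet 1 and NPY-tet 2 and was lowest in NPY-tet 3, which exceeded WT 1 in hair keratin CPM but had 0.891 times its Krtap CPM. In the low WT libraries the ratio rested largely on single genes. Without Krtap3-2 the Krtap sum was 0.481 CPM in WT 2 and 0.599 CPM in WT 4, against 15.4 CPM in NPY-tet 3. The place of NPY-tet 3 as lowest thus depended on Krtap3-2. Krt32 alone gave 4.73, 4.86 and 7.18 CPM of the hair keratin sum in WT 2, WT 3 and WT 4. None of the 15 passed the test, 14 had a fold change above 0 and the median was 0.69. The 4 with the smallest p were Krt32, a cuticle keratin, with a log2 fold change of 0.44 (SE 0.836), Krt33b (1.19, SE 2.33), Krt36 (0.68, SE 1.40) and Krt40 (0.81, SE 1.69). Krt32 stood at 4.73 to 34.98 CPM in WT and 7.35 to 19.9 CPM in NPY-tet. In WT 2 Krt33b, Krt34, Krt39, Krt81 and Krt86 were at 0 counts. When the mean log2 level of the 15 hair keratins was put in the fit as a covariate, the median over Krtap members was -0.21, with 14 of 43 above 0 and 0 past the threshold.

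The inner root sheath, the layer that moulds the growing shaft, showed the same libraries high. Its 9 genes summed to 327.4, 5.57, 10.6, 9.66 and 6873 CPM in WT 1 to 5 and 2362, 4145 and 369.4 CPM in NPY-tet 1 to 3. None passed the test and the median log2 fold change was 0.63. Krt74 had the smallest p, at 0.766 CPM on the mean in WT and 2.98 ± 2.57 CPM in NPY-tet (log2 fold change 1.98, SE 1.18, adjusted p 0.805 by edgeR). Trichohyalin (Tchh), Krt25 and Krt71 had values of 0.90 (SE 2.20), 0.87 (SE 2.50) and 0.70 (SE 2.58). Of 16 regulators and enzymes of shaft formation, 0 passed, 15 had a fold change above 0 and the median was 0.47. Among them Foxq1, a transcription factor of the hair medulla, had the smallest p, at 21.4 to 33.4 CPM in WT and 30.8 to 38.3 CPM in NPY-tet, with a log2 fold change of 0.37 (SE 0.171) and an adjusted p of 0.795 by edgeR. Shh (1.82, SE 0.932), Prdm1 (0.49, SE 0.293) and Bmp4 (0.35, SE 0.229) followed.

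Reads of near-identical members may have been split or lost in counting. For 14 of the 57 members at least 25% of the 50-base stretches of their GENCODE transcripts occur in another gene, among them Krtap5-1 (54.3%), Krtap10-10 (44.1%), Krtap2-4 (43.8%) and Krtap3-3 (41.3%), and their levels are uncertain. For 15 members none do, including Krtap7-1, Krtap8-1, Krtap11-1, Krtap22-2, Krtap14, Krtap16-1 and Krtap17-1. Krtap10-4, Krtap10-10 and Krtap12-1 overlap the gene Tspear, and Krtap24-1 overlaps a non-coding gene on the other strand.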

How the data were processed

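The members, gene lists and tests were chosen with earlier results of these data known. The deposited table holds whole-number counts per gene for 8 libraries and FPKM beside them. The submitters' processing notes list the mm39 build and, with no role given, DESeq2 1.20.0, featureCounts 1.5.0-p3, HISAT2 2.0.5 and CASAVA. Per the labels' protocols, libraries were made from poly-T selected RNA and are non-directional. The deposited FPKM equal the counts divided by gene length and by a size that is constant within a library. Columns were joined to samples by the mouse numbers in the sample titles; for samples 3 to 8 the library names carry another number with the same genotype. Each library is 1 mouse.

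Counts were tested with edgeR 4.0.16 in R 4.3.3: filterByExpr, TMM factors, robust quasi-likelihood dispersions with genotype alone in the design, a two-sided F-test and Benjamini-Hochberg adjustment over the 18495 genes kept (threshold 0.05). Each SE is the size of the log2 fold change over root F. The alternatives were DESeq2 1.42.0, limma 3.58.1 (voom with quality weights, and log2(FPKM + 1) or log2(FPKM + 0.1)), other size factors and filters, the replicate number as a block, the ribosomal RNA set (boundary 1% of counts), the hair keratin score and each library left out. Library totals in place of TMM were added after seeing the data. The fits were tested on simulated data in which all genes had the same dispersion. Krtap members varied far more within a genotype, so that test does not show what change could be found in them. Ratios between 2 libraries carry exact conditional intervals (95%, counting error only).

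Subfamilies were assigned by family number. The named genes are Npy, the 3 highest in FPKM of each subfamily, the highest of each chromosome, the first and last tested member of clusters with 5 or more, the 4 smallest p in each direction, the 2 widest and 2 narrowest ranges, and 4 of each follicle list. Members named in the comparisons between single libraries were chosen after their values were seen.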

Additional observations from a re-analysis of the deposited data

Results flagged for a closer look

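Within the 5 WT libraries, 37 of 41 quantities looked at had 1 library far from the other 4, and in each WT 5 was that library. The measure is the gap between the extreme library and its nearest neighbour, divided by the range of the group, with 0.71 as the critical value for 5 libraries. Chance exceeds it in about 1 of 20 groups of normally distributed values, and these are CPM on the plain scale, so that rate need not hold here. The quantities are not independent, since they share the library, and most of the genes were named for their level, range or p in these same data.

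The gap ratio was 0.983 for the summed CPM of all members, 0.982 for high sulfur, 0.985 for ultra-high sulfur and 0.980 for glycine-tyrosine members, 0.980 for the hair keratins, 0.953 for the inner root sheath genes and 0.882 for the regulators and enzymes. It was 0.938 for Npy, at 0.502 CPM in WT 5 (15 counts) against 0.159 to 0.180 CPM in WT 1 to 4 (5 to 9 counts), all near the floor. Among high sulfur members it was 0.985 for Krtap11-1 and Krtap28-10, 0.970 for Krtap15 and Krtap28-13, 0.983 for Krtap3-1 and Krtap3-3, 1.000 for Krtap10-4, 0.981 for Krtap24-1, 0.964 for Krtap14 and 0.924 for Krtap3-2. Among ultra-high sulfur members it was 0.985 for Krtap9-3, 0.959 for Krtap17-1, 0.989 for Krtap4-7, Krtap4-2 and Krtap4-8, 0.996 for Krtap4-6 and 0.936 for Krtap5-5. Among glycine-tyrosine members it was 0.989 for Krtap7-1, 0.964 for Krtap8-1, 0.987 for Krtap22-2 and 0.966 for Krtap21-1. In the follicle lists it was 0.919 for Krt32, 0.984 for Krt33b, 0.973 for Krt36, 0.971 for Krt40, 0.885 for Krt74, 0.953 for Tchh, 0.949 for Krt25 and 0.947 for Krt71. The NPY-tet group has 3 libraries and was not looked at in this way.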

How the results depend on the processing

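The count of members past the threshold was 0 under every alternative run except the replicate block, with 1 (Krtap16-1, adjusted p 0.0458 by edgeR), and the libraries poor in ribosomal RNA, with 10 members, 3 hair keratins and 4 regulators. Over all genes edgeR called 1 and DESeq2 64 (20 higher, 44 lower). The median log2 fold change of Krtap members was 4.84 with limma-voom, 5.10 with the replicate block and 9.07 in the libraries poor in ribosomal RNA. For hair keratins it was 6.20, 5.11 and 8.25 in these settings, for the inner root sheath 6.23, 5.32 and 7.19, and for regulators 1.92 in the third. Leaving out each library in turn, it ran from -0.85 to 5.92 for Krtap members, -0.74 to 5.75 for hair keratins, -0.11 to 4.76 for the inner root sheath and 0.065 to 1.84 for regulators, highest without WT 5 in each. The replicate numbers were not taken as pairs in the main fit. Deviations of WT and NPY-tet libraries with the same number correlated at -0.04, -0.11 and 0.30, and those with unlike numbers at -0.23 to 0.12. So few libraries cannot settle whether the numbers pair the mice.

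Among named members, the log2 fold changes of Krtap4-2, Krtap4-7, Krtap4-8 and Krtap4-6 turned positive with limma-voom (4.84, 5.04, 4.01 and 4.85), log2(FPKM + 1) (0.48, 0.61, 0.28 and 0.51), log2(FPKM + 0.1) (2.01, 2.08, 1.48 and 2.02), the replicate block (5.05, 5.10, 3.97 and 6.37), the ribosomal RNA covariate (1.60, 1.72, 1.63 and 1.72) and the libraries poor in ribosomal RNA (8.99, 9.52, 7.97 and 8.70). In the libraries rich in ribosomal RNA 19 of 43 members turned below 0, Krtap14 (-0.21) among them, and without NPY-tet 2 29 of 43 did. Leaving out libraries, Krtap14 ran from -0.75 to 5.94 and Krtap21-1 from -0.024 to 2.02. The cause of these changes was not tested. The subfamilies defined by protein content were not run, since no protein sequences were used here. Fewer than 200 Krtap counts in WT 2, WT 3 and WT 4 limit what can be said of single members there.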
